A study of Homo sapiens with 2 samples.

Results

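The miR-26 family was followed in small RNA libraries of MDA-MB-231, a human cell line established from triple-negative breast cancer. Its members were chosen by name, as the guide arms and the passenger arms of the 3 miR-26 hairpins, and all 5 were found among the 2656 mature microRNAs of the deposited table. The tested cells were MDA-MB-231 transduced with an shRNA against ELOVL5 (shELOVL5), a gene for an elongase of polyunsaturated fatty acids, and the comparison cells were MDA-MB-231 transduced with the control shRNA named shLuc. There was 1 library per condition, so every difference below lacks a replicate check and no p-value is given. Both groups carry an shRNA, no untransduced cells were analysed here, and the labels do not say whether a line is a clone or a pool. The sample labels and the growth protocol name the cell line, while the extraction text of the labels speaks of frozen tumour material. The table holds microRNAs only, so the ELOVL5 transcript itself was not measured in it.

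A microRNA hairpin yields a pair of strands, of which the guide is usually loaded into an Argonaute protein and the passenger is mostly degraded. The miR-26 hairpins are encoded in introns of the CTDSP genes, which make small phosphatases that act on the C-terminal domain of RNA polymerase II and on the retinoblastoma protein. The miR-26 guides are known as repressors of cyclin, CDK6 and EZH2 messages, and are described as growth-restraining in several carcinomas, breast cancer included. The guide of the CTDSPL and CTDSP2 loci is identical in sequence, so among the mature sequences only the passenger arms tell these loci apart.

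The mature sequences are shown because the shared seed, the near-identical guides and the distinct passengers decide what each count can tell. All 5 were matched in the RefSeq table (GRCh38.p14), are written 5′ to 3′, and carry the seed (bases 2 to 8) in capitals.
hsa-miR-26a-5p: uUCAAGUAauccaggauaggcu
hsa-miR-26b-5p: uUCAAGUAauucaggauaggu
hsa-miR-26a-1-3p: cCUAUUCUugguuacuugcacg
hsa-miR-26a-2-3p: cCUAUUCUugauuacuuguuuc
hsa-miR-26b-3p: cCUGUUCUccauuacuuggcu
The guides share the seed UCAAGUA and differ at 2 of the 21 positions they have in common, C11U and C21U, counted from 1 at the 5′ end with the miR-26a base first. Reads of the guides that end before base 21 therefore differ at position 11 only, and the sources used here do not state how reads with a mismatch were counted. The miR-26a passengers share the seed CUAUUCU and differ at 5 of 22 positions, G11A, C19U, A20U, C21U and G22C, with the hsa-miR-26a-1-3p base first. hsa-miR-26b-3p has its own seed, CUGUUCU, which differs from that of hsa-miR-26a-1-3p by A4G. In the RefSeq table no mature microRNA outside the family carries either passenger seed.

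The hairpins are shown, with both mature arms in capitals, because the miR-26a hairpins differ only outside the guide.
hsa-mir-26a-1: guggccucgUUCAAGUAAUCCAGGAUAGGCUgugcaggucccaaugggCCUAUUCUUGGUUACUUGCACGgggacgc
hsa-mir-26a-2: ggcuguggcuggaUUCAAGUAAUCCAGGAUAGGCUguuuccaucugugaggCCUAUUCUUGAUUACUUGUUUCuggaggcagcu
hsa-mir-26b: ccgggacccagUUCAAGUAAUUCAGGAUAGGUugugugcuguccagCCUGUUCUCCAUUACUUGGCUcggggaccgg
In the minimum free energy fold, 20 of 22 guide bases were paired in hsa-mir-26a-1 (-37.3 kcal/mol), 19 of 22 in hsa-mir-26a-2 (-41.3 kcal/mol) and 18 of 21 in hsa-mir-26b (-40.2 kcal/mol). Both guides begin with U and all 3 passengers with C. For comparison, expressed arms with a partner arm in the table were called guides if they had more counts over both libraries than each partner. Of these, 74 of 118 matched guide arms (62.7%) began with U and 16 (13.6%) with C. Among the 137 matched passenger arms, 21 (15.3%) began with U and 56 (40.9%) with C.

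MIR26A1 lies on chromosome 3 at 37969404 to 37969480 (GRCh38, plus strand), 107 kb from the annotated start of CTDSPL. It is within intron 4 of the longest coding transcript with a CCDS entry among those that span the hairpin. MIR26A2 lies on chromosome 12 at 57824609 to 57824692 (minus strand), 22.0 kb from the start of CTDSP2 and within intron 5 of the transcript chosen in the same way. MIR26B lies on chromosome 2 at 218402646 to 218402722 (plus strand), 4.39 kb from the start of CTDSP1 and within intron 4 of such a transcript. The intron number depends on the transcript. Over the coding transcripts that span the hairpin it was 2, 4 or 5 for MIR26A1, 1, 2, 4 or 5 for MIR26A2, and always 4 for MIR26B. Each hairpin runs in the direction of its host gene, and none overlaps an annotated exon of another gene. The host genes differ in length, at 123 kb for CTDSPL, 26.8 kb for CTDSP2 and 7.69 kb for CTDSP1.

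**Figure D1:**
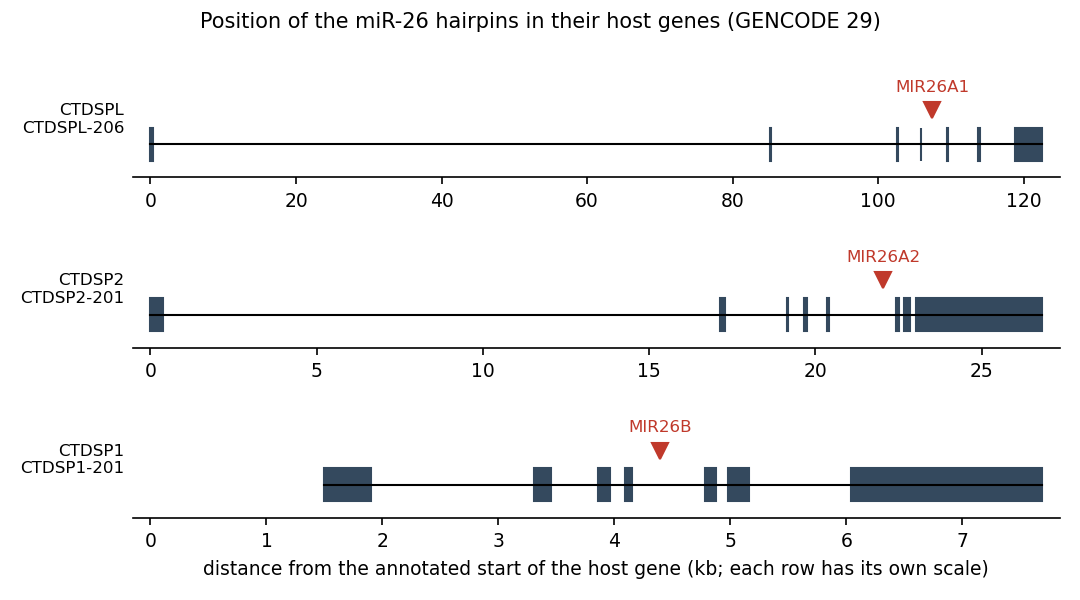
Exons (boxes) of 1 coding transcript per host gene and the miR-26 hairpin (triangle), against distance in kb from the annotated start of the gene, from GENCODE 29. Each hairpin falls between exons, at 107 kb in CTDSPL, 22.0 kb in CTDSP2 and 4.39 kb in CTDSP1.

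The shELOVL5 library held 6811811 microRNA counts and the shLuc library 7109272. Levels are counts per 1000000 counts scaled by TMM factors (CPM), and ratios are shELOVL5 over shLuc with a 95% counting interval. A microRNA was called expressed at an unscaled mean of at least 50 CPM and at least 100 counts over both libraries, which held for 191. All 5 microRNAs listed for the cell line were expressed, summing to 439695 CPM for shELOVL5 cells and 451232 CPM for shLuc cells. Of the markers of other cells, 1 of 3 epithelial, 1 of 7 blood, 1 of 3 stromal and endothelial, and 0 of 4 liver and muscle microRNAs were expressed. The expressed epithelial one was hsa-miR-200c-3p, with 450 counts in shELOVL5 and 467 in shLuc. The epithelial list leaves out hsa-miR-200b-3p (1626 and 1265 counts) and hsa-miR-200a-3p (471 and 281), which were also expressed and were higher in shELOVL5. The summed blood list stood at 331 CPM for shELOVL5 cells and 398 CPM for shLuc cells, with 2 of its members at 0 in both libraries. Most of that sum was hsa-miR-486-5p, with 2146 counts in shELOVL5 and 2788 in shLuc, whereas the leukocyte microRNAs hsa-miR-142-5p (84 and 6 counts) and hsa-miR-142-3p (45 and 2 counts) were higher in shELOVL5. The stromal and endothelial list stood at 752 CPM for shELOVL5 cells and 628 CPM for shLuc cells, nearly all of it hsa-miR-126-3p (5175 and 4394 counts). Below the expression limit, the muscle microRNAs hsa-miR-206 (155 counts in shELOVL5 and 69 in shLuc) and hsa-miR-1-3p (14 and 80) differed in opposite directions. The part of these markers in the miR-26 values was not tested.

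The miR-26a and miR-26b guides differed between the libraries in opposite directions. hsa-miR-26a-5p, the main guide of the family, was slightly lower in shELOVL5 cells, and hsa-miR-26b-5p, which has the same seed, was higher. hsa-miR-26a-5p was counted 197846 times in shELOVL5 cells (28685 CPM) and 226134 times in shLuc cells (32207 CPM), giving a ratio of 0.891 (0.885 to 0.896). It was the 8th most abundant microRNA in shELOVL5 and the 7th in shLuc, with 2.90% and 3.18% of all counts. hsa-miR-26b-5p was counted 16718 times in shELOVL5 cells (2424 CPM) and 13732 times in shLuc cells (1956 CPM), giving a ratio of 1.24 (1.21 to 1.27). It ranked 47th in shELOVL5 and 52nd in shLuc. Both intervals exclude a ratio of 1, so both differences are larger than counting error, but such intervals hold no variation between cultures.

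Neither guide met a rule of size. At 2-fold, 1.57% of the 191 expressed microRNAs were higher in shELOVL5 and 0% were lower, and at 1.5-fold the shares were 3.14% and 0.524%. Even at a ratio of at least 5 to 4, which 9.95% of expressed microRNAs met upward and 9.95% downward, neither guide was included, although hsa-miR-26b-5p was just past it under total count scaling, at a log2 ratio of 0.35. The log2 ratio of hsa-miR-26a-5p was -0.17, with 53 expressed microRNAs lower and 137 higher. That of hsa-miR-26b-5p was 0.31, with 168 lower and 22 higher. Over all 191 the median log2 ratio was -0.033, with quartiles at -0.18 and 0.17, so hsa-miR-26a-5p lay within the middle range of the table and hsa-miR-26b-5p above its upper quartile. Of the 191, 61 (31.9%) had an interval above 1 and 80 (41.9%) had an interval below 1, so an interval that excludes 1 was common at this depth.

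**Figure D2:**
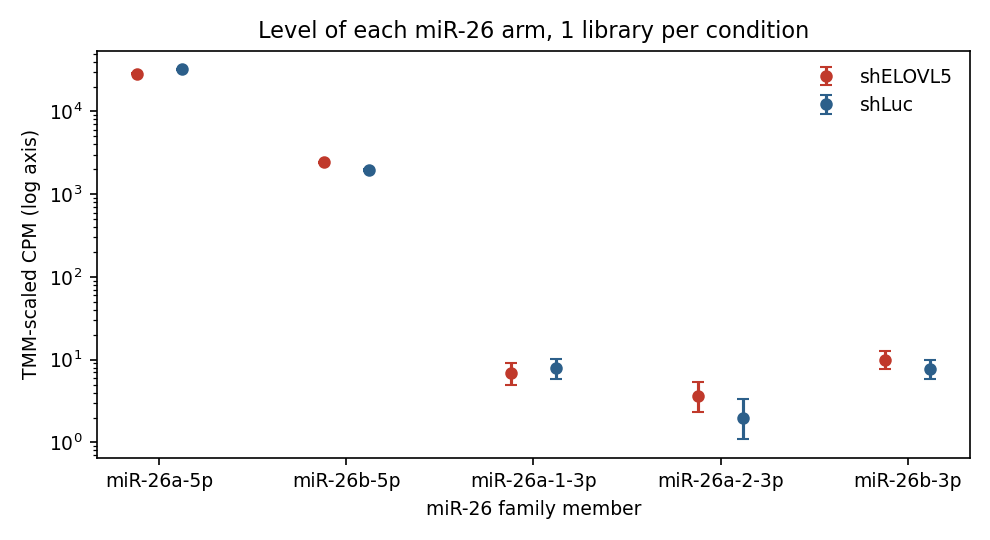
TMM-scaled CPM (log axis) of each miR-26 arm in shELOVL5 (left point of each pair) and shLuc (right point), with 95% Poisson intervals, 1 library per condition. The guides stand at 28685 and 32207 CPM for miR-26a-5p and at 2424 and 1956 CPM for miR-26b-5p, while all passengers lie near or under 10.0 CPM.

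The balance between the guides does not depend on how the libraries are scaled. Of all miR-26 guide counts, hsa-miR-26b-5p made 7.79% (Clopper-Pearson 7.68 to 7.91%) in shELOVL5 and 5.72% (5.63 to 5.82%) in shLuc. There were 11.8 miR-26a guide counts for each of miR-26b in shELOVL5 and 16.5 in shLuc. The odds ratio was 1.39 (exact conditional interval 1.36 to 1.42). Counting the shared miR-26a guide once under each of its 2 precursors lowers the shares to 4.06% and 2.95% by construction. Since miR-26a makes most of the family, the summed guides followed it, with 214564 counts (3.15% of the library) in shELOVL5 and 239866 counts (3.37%) in shLuc, a ratio of 0.911 (0.905 to 0.916).

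For context, pairs of expressed microRNAs with the same bases 2 to 8 were compared in the same way, a choice made after the miR-26 values were seen. Sequences were matched for 174 of the 191, and the other 17, among them hsa-miR-30b-5p, hsa-miR-30d-5p, hsa-miR-320a-3p and hsa-miR-130a-3p, are not in these pairs. The ratios of the miR-26 guides differed 1.39-fold. Among the other 83 pairs of matched microRNAs the median difference was 1.08-fold, and 7 pairs (8.43%) differed at least as much as the miR-26 guides. The widest was hsa-miR-27a-3p with hsa-miR-27b-3p at 1.60-fold. These pairs share members, and several of them, let-7 among them, are close enough in sequence to share reads, so the count describes the table and tests nothing.

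**Figure D3:**
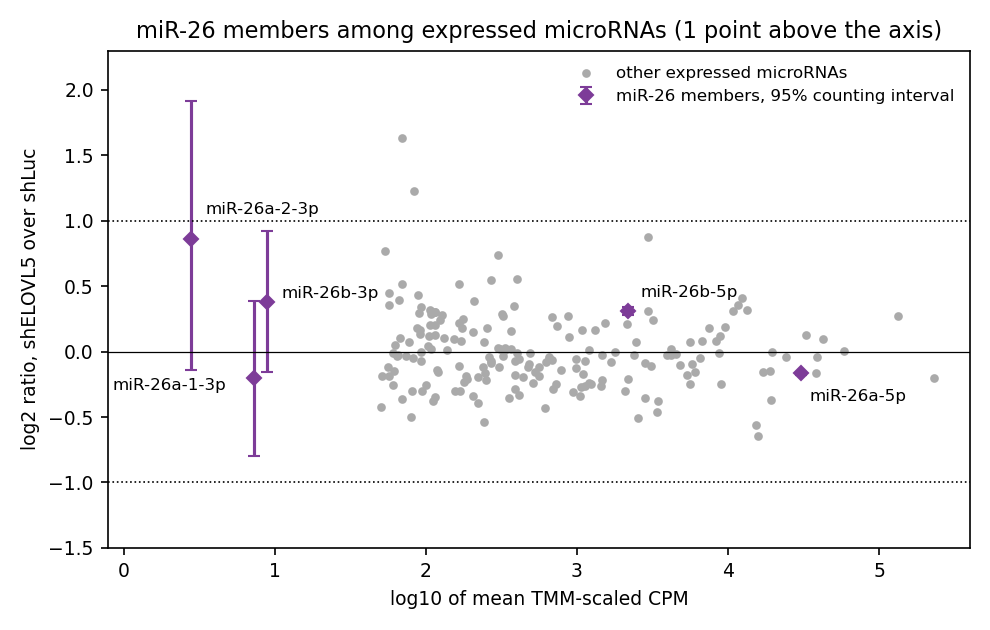
log2 ratio (shELOVL5 over shLuc) against log10 of the mean scaled CPM for the miR-26 members (diamonds, 95% counting intervals) and the other expressed microRNAs (grey), with dotted lines at 2-fold. miR-26b-5p lies at 0.31 and miR-26a-5p at -0.17, and the intervals of all 3 passengers include 0.

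The passenger arms, which report on the separate loci, were rare in both libraries. None of the 3 reached the expression limit, so the median of the members is not used as a summary. hsa-miR-26a-1-3p, from the CTDSPL intron, had 47 reads in shELOVL5 cells (6.81 CPM) and 55 reads in shLuc cells (7.83 CPM), at a ratio of 0.870 (0.577 to 1.31). hsa-miR-26a-2-3p, from the CTDSP2 intron, had 25 reads in shELOVL5 cells (3.62 CPM) and 14 reads in shLuc cells (1.99 CPM), at a ratio of 1.82 (0.909 to 3.78). hsa-miR-26b-3p, from the CTDSP1 intron, had 69 reads in shELOVL5 cells (10.0 CPM) and 54 reads in shLuc cells (7.69 CPM), at a ratio of 1.30 (0.898 to 1.89). All 3 intervals include 1, so no difference in a passenger arm was detectable at this depth. By value, hsa-miR-26b-3p stood on the same side of 1 as its guide, hsa-miR-26a-1-3p on the same side as the miR-26a guide, and hsa-miR-26a-2-3p on the other side from the miR-26a guide.

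Large ratios were common at such counts. Among the 182 microRNAs with 30 to 150 counts over both libraries, a band chosen after seeing the values so as to hold all 3 passengers, 36.8% were higher in shELOVL5 by a ratio of at least 5 to 4 and 18.7% were lower by as much. At least 1.5-fold higher were 22.5%, the group that holds hsa-miR-26a-2-3p, and at least 1.5-fold lower were 8.79%. The 2-fold rule was met by 5.49% upward and 3.85% downward, and by none of the passengers. The ratio of 1.82 for hsa-miR-26a-2-3p rests on 39 counts in all, and with 5 CPM added to both values its log2 ratio fell to 0.30 from 0.86, under both of the lower fold rules.

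Among the mature sequences, only these passengers tell the CTDSPL and CTDSP2 loci apart. The miR-26a guide is also listed under each precursor. There the CTDSP2 row was higher by 331 counts in shELOVL5 and 337 in shLuc, as described under other observations. hsa-miR-26a-2-3p made 25 of the 72 miR-26a passenger counts in shELOVL5, or 34.7% (Clopper-Pearson 23.9 to 46.9%), and 14 of 69 in shLuc, or 20.3% (11.6 to 31.7%). The odds ratio was 2.08 (exact conditional interval 0.918 to 4.86), which includes 1. In both libraries the CTDSPL passenger was the more frequent of the pair, by 1.88 to 1 in shELOVL5 and 3.93 to 1 in shLuc. Passenger counts reflect how stable each arm is as well as how much of each hairpin is made, and these cannot be told apart here.

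The same split was taken for a list of other guides made from 2 loci, of which 8 had at least 10 counts for both passengers in each library. The difference for miR-26a, 14.4 percentage points, was the widest of the 9 in points, and it rested on the fewest passenger counts. Shares close to either end of the scale have little room to move in points. As an odds ratio, hsa-let-7f-5p was further from 1 (2.75) than miR-26a (2.08). For hsa-miR-16-5p, hsa-miR-24-3p and hsa-miR-30c-5p the share of the second locus differed by 0.0356, 0.0358 and -0.0163 points. The interval of the odds ratio excluded 1 for hsa-let-7f-5p, with hsa-let-7f-2-3p at 7.74% in shELOVL5 and 2.95% in shLuc (odds ratio 2.75, 1.43 to 5.59), and for hsa-miR-181a-5p, with hsa-miR-181a-3p at 76.0% and 72.6% (odds ratio 1.19). For miR-26a it did not.

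**Figure D4:**
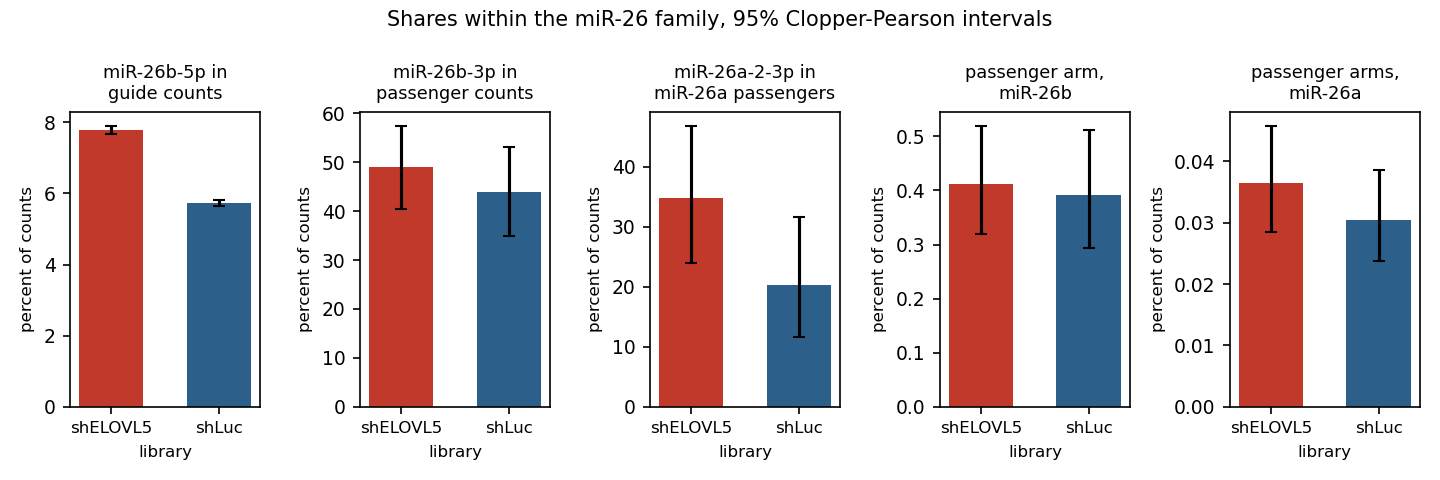
Shares in percent of counts in shELOVL5 (left bar) and shLuc (right bar), with 95% Clopper-Pearson intervals, each panel on its own axis from 0. The miR-26b share of the guides differs beyond its intervals (7.79% and 5.72%), whereas the intervals of the other 4 shares overlap.

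No difference in arm balance between the libraries was detectable for either microRNA, while miR-26b had far more passenger counts per guide count than miR-26a in both libraries. The miR-26b passenger made 0.411% (0.320 to 0.520%) of that hairpin's counts in shELOVL5 and 0.392% (0.294 to 0.511%) in shLuc, an odds ratio of 1.05 (0.724 to 1.53). Both miR-26a passengers together made 0.0364% (0.0285 to 0.0458%) of all miR-26a counts in shELOVL5 and 0.0305% (0.0237 to 0.0386%) in shLuc, an odds ratio of 1.19 (0.845 to 1.68). Both intervals include 1 and still allow odds up to 1.53 and 1.68 times as high in shELOVL5. Within a library, the passenger-to-guide odds of miR-26b were 11.3 times those of miR-26a in shELOVL5 (8.03 to 16.0) and 12.9 times in shLuc (8.85 to 18.7). These odds set counts of different sequences against each other, and whether the library preparation captured them equally was not tested. hsa-miR-26b-3p made 48.9% (40.4 to 57.5%) of the miR-26 passenger counts in shELOVL5 and 43.9% (35.0 to 53.1%) in shLuc, although its guide was a small part of the guide counts in both.

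Set against other hairpins, miR-26a had a low passenger share and miR-26b a share near the median of guides at least as abundant. Over 130 expressed guides with a named passenger, the median passenger share was 2.03% in shELOVL5 and 1.76% in shLuc. Here too the guide is the arm with more counts than each partner in these libraries, which keeps the passenger shares low by construction. miR-26a had the 13th lowest share in shELOVL5 and the 18th lowest in shLuc, and miR-26b the 43rd and the 47th. Passenger shares were lower for abundant guides: over the 47 guides with at least as many counts as hsa-miR-26b-5p the medians were 0.416% and 0.357%, close to the miR-26b values.

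**Figure D5:**
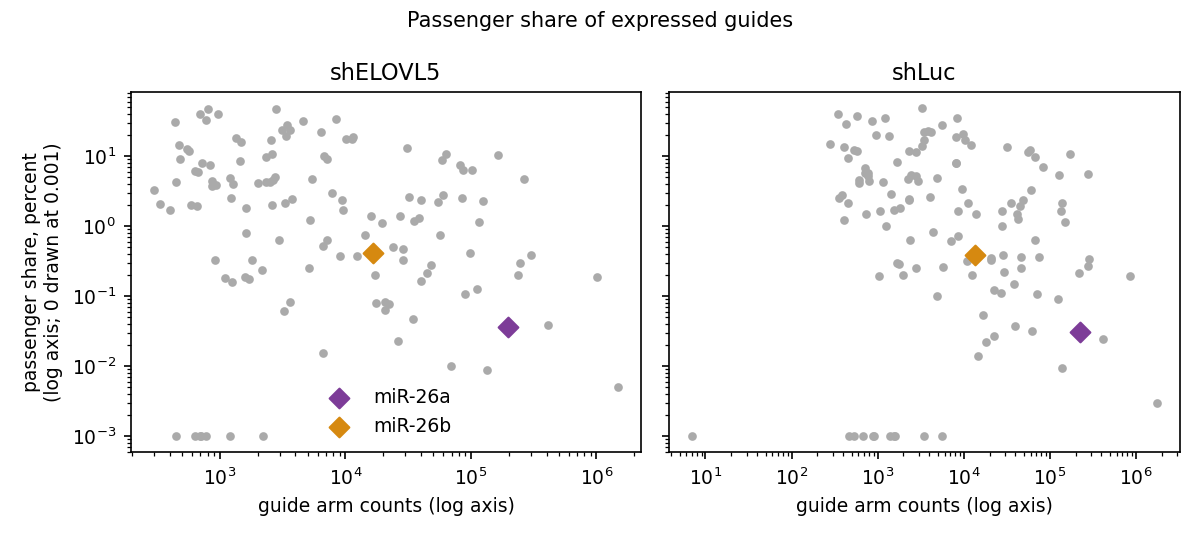
Passenger share in percent (log axis, 0 drawn at 0.001) against guide counts (log axis) for 130 expressed guides in shELOVL5 (left) and shLuc (right). miR-26b (0.411% and 0.392%) lies near the median of guides at least as abundant (0.416% and 0.357%), and miR-26a (0.0364% and 0.0305%) lies in the lower part.

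Among the 2367 of 2656 microRNAs of the deposited table whose sequence was matched, no other microRNA with the miR-26 guide seed had a count. In the RefSeq table, 2 other mature microRNAs have the seed UCAAGUA, and they are shown because they would add to the same target pool.
hsa-miR-1297: uUCAAGUAauucaggug
hsa-miR-4465: cUCAAGUAgucugaccagggga
hsa-miR-1297, on chromosome 13 at 54311981 to 54311997, and hsa-miR-4465, on chromosome 6 at 140683855 to 140683876, both had 0 counts in each library. At 0 counts the data still allow a level of 3 counts. Without TMM scaling that is 0.440 CPM for the shELOVL5 library and 0.422 CPM for the shLuc library.

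The microRNAs closest in level were found by the distance of log2 scaled CPM over the 2 libraries. For hsa-miR-26a-5p these were hsa-let-7f-5p (distance 0.26), hsa-miR-222-3p (0.46) and hsa-miR-30a-5p (0.46), with ratios of 1.09, 0.894 and 0.970. For hsa-miR-26b-5p they were hsa-miR-378a-3p (distance 0.076), hsa-miR-98-5p (0.31) and hsa-miR-4521 (0.31), with ratios of 1.15, 1.05 and 0.983. With only 2 libraries this likeness is mostly one of abundance.

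Other microRNAs known to repress the same kinds of target were found on both sides of a ratio of 1. Of 11 microRNAs listed as repressors of EZH2, the histone methyltransferase of Polycomb complex PRC2, 8 were expressed, the miR-26 guides included. Of these, 4 had an interval above 1 (hsa-miR-26b-5p included), 2 below 1 (hsa-miR-26a-5p included) and 2 spanning 1. Over all 191 expressed microRNAs the numbers were 61, 80 and 50. None of the 8 was 2-fold different, and their median log2 ratio was 0.082 against -0.033 for all 191. Beside hsa-miR-26a-5p, the most abundant were hsa-let-7a-5p, with 302713 counts in shELOVL5 and 287560 in shLuc (ratio 1.07, 1.07 to 1.08), and hsa-let-7b-5p, with 35419 and 42870 (0.841, 0.829 to 0.853). Of 16 microRNAs listed as repressors of the entry into S phase, 10 were expressed. The miR-26 guides, hsa-let-7a-5p and hsa-let-7b-5p are in this list too. Of the 10, 4 had an interval above 1 (hsa-miR-26b-5p included), 4 below 1 (hsa-miR-26a-5p included) and 2 spanning 1, with a median log2 ratio of 0.045. In both lists most intervals excluded 1, as they did over all expressed microRNAs. In that list hsa-miR-29a-3p, a repressor of CDK6, had 90085 counts in shELOVL5 and 71451 in shLuc (1.28, 1.27 to 1.30).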

How the data were processed

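Small RNA from 1 shELOVL5 and 1 shLuc sample was sequenced, and the labels differ on the material, as said in the opening. The authors deposited 1 raw count for each combination of precursor and mature microRNA, not normalized. The submitters' processing notes name Bowtie 1.1.1, cutadapt 2.10 and FastQC 0.11.9. How reads were counted, with what annotation and how many mismatches, is not given in the sources used here. Libraries were made with a NEBNext kit, per the labels' protocols. No molecular identifiers are described, so intervals and limits cover counting error only.

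For a mature microRNA listed under several precursors the highest row per library was kept, which left 2656 from 2886 lines. TMM factors came from edgeR 4.0.16 in R 4.3.3, at 1.01 for shELOVL5 and 0.988 for shLuc. DESeq2 1.42.0 size factors were an alternative, and they were 1 for both libraries, which leaves the counts unscaled. Ratio intervals come from the Clopper-Pearson interval of the shELOVL5 share of a microRNA's reads, and odds ratios are exact conditional estimates (scipy 1.17.1). The scripts were tested on simulated data. Hairpins were folded with RNAfold (ViennaRNA 2.7.2). Sequences are RefSeq's (GRCh38.p14), and host genes are from GENCODE 29 (GRCh38). The deposited table holds no coordinates. The ratio of at least 5 to 4 is the lowest of 3 fold rules used. The host transcript shown is the longest coding one with a CCDS entry among those that hold the hairpin in an intron.

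All 5 members were named, with the nearest 3 microRNAs per guide, microRNAs sharing a guide seed, and fixed lists. The members and lists were chosen with earlier results of these data known.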

Additional observations from a re-analysis of the deposited data

How the results depend on the processing

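No paired analysis was possible because there was a single library for either condition, so none could be left out. Total count scaling moved the log2 ratio of hsa-miR-26a-5p from -0.17 to -0.13 and that of hsa-miR-26b-5p from 0.31 to 0.35. DESeq2 size factors came out at 1 for both libraries, so that setting compares raw counts with no correction for depth. It moved the log2 ratio of hsa-miR-26a-5p to -0.19. Each of these moves went past the counting interval, since scaling shifts every log2 ratio by a constant. With 5 CPM added that of hsa-miR-26a-2-3p was 0.30 against 0.86, within its counting interval. No member changed sign under the 6 alternatives run. Summing precursor rows counts the miR-26a guide once more, which by construction gave miR-26a passenger shares of 0.0182% in shELOVL5 and 0.0153% in shLuc and miR-26b guide shares of 4.06% and 2.95%. The background counts of 3 higher and 0 lower became 6 and 1 at 1.5-fold, 19 and 19 at a ratio of 5 to 4, 5 higher at a mean of 10 CPM, 0 higher at 1000 CPM, and 120 and 77 when every microRNA with a count in both libraries was kept. Depth limits the 3 passengers, with 14 to 69 counts each, and every comparison lacks replicates.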

Other observations

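The deposited table lists the shared miR-26a guide under both precursors with slightly different counts. The row for hsa-mir-26a-2 held 197846 counts in shELOVL5 and 226134 in shLuc, and the row for hsa-mir-26a-1 held 197515 and 225797. The CTDSP2 precursor thus had 331 more reads in shELOVL5 and 337 more in shLuc, or 0.167% and 0.149% of the guide. The hairpins differ in the base just before the guide (g in hsa-mir-26a-1, a in hsa-mir-26a-2) and from the third base after it (gugc and guuu). Whether reads that reach into these bases make the difference was not tested, since the table holds no read sequences. Among 26 expressed microRNAs with several precursors, the lowest and the highest row differed by a median of 1.36% in shELOVL5 and 1.24% in shLuc, more than for hsa-miR-26a-5p.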
